A study of Rattus norvegicus with 75 samples.

Results

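Gene expression in the cortical collecting duct (CCD) of rats was compared between lithium food and control food after 24 h, in 6 of the 75 RNA sequencing libraries of the series. The 3 control libraries came from CCD dissected by hand out of male Sprague-Dawley rats of 120 to 160 g that ate food without lithium. The 3 lithium libraries came from rats of the same strain, sex and weight whose food held lithium chloride at 40 mM per kg of food. The libraries were chosen by their labelled segment, food and time alone, and the labels name no genotype, age or other agent. Levels are in TPM, which scale reads for the length of the transcript and for the size of the library, so that genes can be compared per length. Of 32754 genes, 11909 had at least 1 TPM in at least 3 of the 6 libraries and were tested. The CCD libraries at 12 h (3 control, 2 lithium) and 36 h (3 and 3), which have their own controls, serve to place the values at 24 h in time. The design text of the series is concerned with signalling at the onset of nephrogenic diabetes insipidus, the loss of urine concentration seen with lithium.

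The CCD takes up sodium and water through its principal cells and secretes acid or base through its intercalated cells. Vasopressin brings the water channel aquaporin 2 to the apical membrane of principal cells, and long lithium treatment is known to deplete it. Lithium enters these cells mainly through the epithelial sodium channel, and it inhibits glycogen synthase kinase 3 and the inositol monophosphatases. Lithium is also known to drive principal cells into the cell cycle, where many stop before division.

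Markers of the CCD were abundant in all 6 libraries. The summed TPM of the principal cell list was 27813 to 30266 in controls and 26246 to 27860 with lithium, and both groups were low in thick ascending limb markers, at 208 to 233 against 211 to 243 TPM. Leukocyte, endothelial and distal tubule sums overlapped between the groups. In bulk libraries fewer cells of a type and less RNA per cell cannot be told apart. Proximal tubule markers summed to 961, 1218 and 2919 TPM in control libraries 1 to 3 and to 262 to 415 TPM with lithium, so that control library 3 stood highest and every control lay above every lithium library. These controls also lay above the controls at 12 h (137 to 771 TPM) and 36 h (147 to 287 TPM). Haemoglobin summed to 65.4 to 238 TPM in controls and 2.36 to 86.6 TPM with lithium. Messenger RNA from mitochondrial DNA made up 9.96 to 11.8% of TPM in controls and 7.22 to 7.56% with lithium. In each control library between 11600 and 11772 genes reached 1 TPM, and in each lithium library between 11809 and 12010. The sequencing depth is unknown, so precision rests on the spread between libraries.

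**Figure D1:**
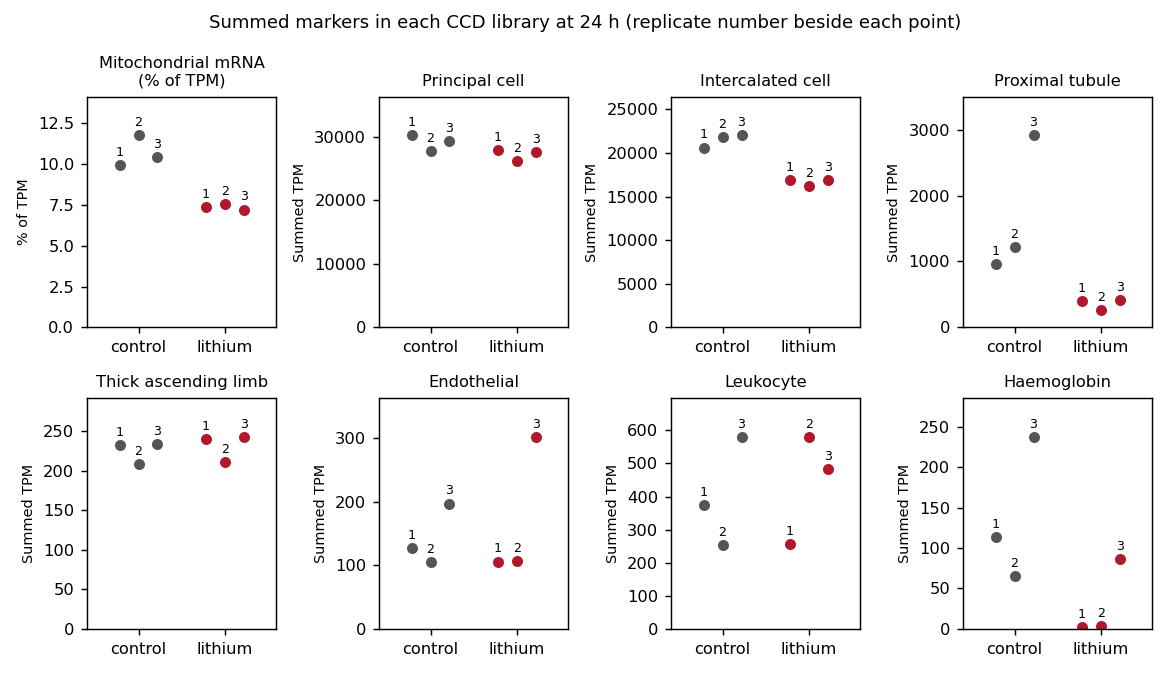
Summed TPM of marker lists, and the share of TPM from mitochondrial mRNA, in each of the 6 CCD libraries at 24 h, with the replicate number beside each point (control grey, lithium red). Proximal tubule markers were highest in control library 3 at 2919 TPM, and the intercalated sum was 20630.3 to 22058 TPM in controls against 16226 to 16924 with lithium.

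The 41 gene lists used below hold 943 symbols, of which 918 matched the table by symbol, 3 by another name and 22 not at all, and 806 of the genes were tested.

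No label ties a library to a rat, so the p-values reflect how far libraries spread, and that spread can be technical. Across CCD libraries 12 genes were picked that sit at 1 of 2 levels, with a gap of at least 0.5 on the log2 scale between them. Each had to hold at least 2 libraries of both 72 h groups at each level, so these groups are split by choice. Sorted by these levels, the larger 72 h groups form 4 sets of control and 4 sets of lithium libraries. At 24 h the 3 control libraries shared the same level in 10 of the 12 genes, and the 3 lithium libraries in 11. The groups sat at opposite levels in 5 of them: H3f3c, Slc39a1, Znf768, RT1-CE1 and RT1-CE4. Each group at 24 h thus looks like a single set, and whether its 3 libraries share a source was not tested. Calls are therefore given both over libraries and over set means, in which each 24 h group counts as 1 mean and the sets at 72 h supply the spread.

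Many genes differed between lithium and control at 24 h, and more rose than fell. Limma with Benjamini-Hochberg adjustment called 3059 of 11909 genes (25.7%) at an adjusted p under 0.05, 2372 higher (19.9%) and 687 lower (5.77%). Of these, 760 differed at least 2-fold, 621 higher and 139 lower. Over set means 313 genes (2.63%) were called, 288 higher (2.42%) and 25 lower (0.21%), and all 313 were also called over libraries. All lithium libraries lay above all controls in 4040 genes (33.9%) and below all controls in 1236 (10.4%). The median log2 difference over all genes tested was 0.132. Median-of-ratios scaling moved that median by -0.144 and gave 1572 rises and 1426 falls, and quantile normalisation moved it by -0.165 and gave 1524 and 1418. List counts of the main fit over libraries are to be read against the shares of 19.9% higher and 5.77% lower. List counts under another scaling, or on set means, are to be read against the counts given above for that setting over all 11909 genes. In a fit with all 8 CCD groups, the 72 h groups included, 1023 genes were higher and 209 lower. All log2 differences are of TPM + 1, so changes of low genes are understated.

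**Figure D2:**
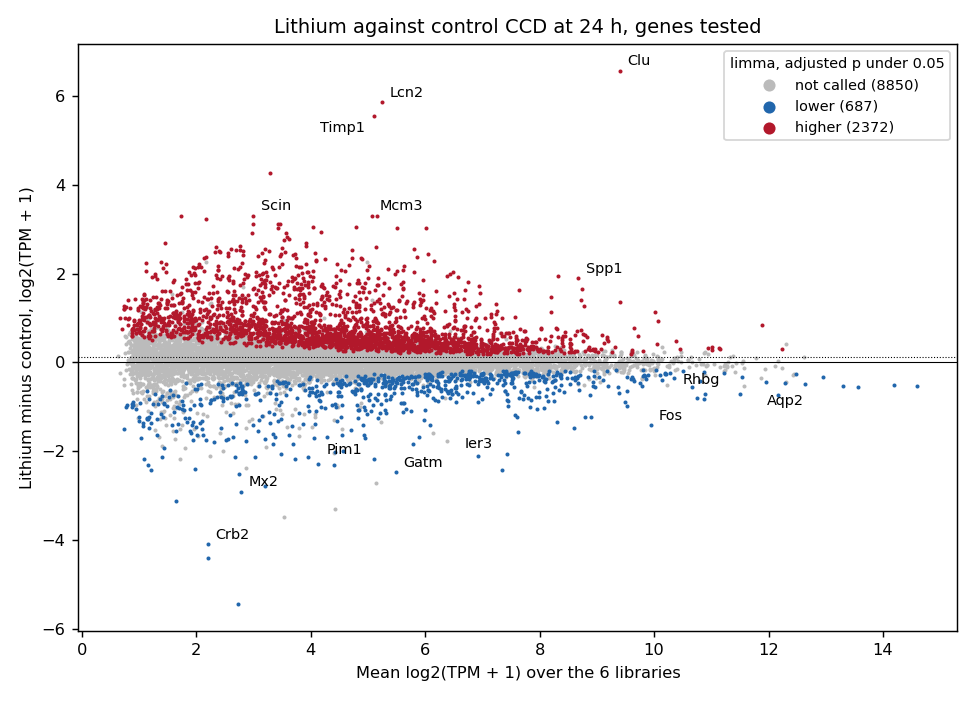
Lithium minus control on the log2(TPM + 1) scale (vertical) against the mean level over the 6 libraries (horizontal), 1 point per gene tested. The 2372 genes called higher are red, the 687 called lower blue and the rest grey, the dotted line is the median of 0.132, and Clu stands highest at 6.57 while Crb2 lies lowest among the labelled genes at -4.10.

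Most genes that load and fire replication origins rose together. Origins are prepared when the origin recognition complex, CDC6 and CDT1 place the MCM helicase on DNA, and E2F factors, released from the Rb family, are known to switch on this gene set. Of 26 listed genes 25 were tested, 21 rose and none fell, with a median log2 difference of 1.96, against 19.9% of all genes called higher. On set means 17 of the 25 were called higher. Mcm3, Mcm5 and Mcm6 encode subunits of the helicase ring. Mcm3 was at 12.6, 8.84 and 8.16 TPM in the 3 control libraries and 98.8, 109 and 107 TPM in the 3 lithium libraries. Mcm5 was at 12.7, 9.59 and 9.32 TPM and 116, 105 and 113 TPM. Mcm6 was at 22.1, 22.1 and 20.5 TPM and 189.7, 175 and 184 TPM. No lithium library came near a control in any of the 3 genes. The log2 differences were 3.31 (SE 0.175), 3.29 (SE 0.161) and 3.03 (SE 0.142), with adjusted p between 4.01e-10 and 1.42e-09. Cdc6, a helicase loader, went from 3.08, 1.86 and 3.2 to 33.1, 32.4 and 26.9 TPM, a log2 difference of 3.11 (SE 0.175). Cdt1, its partner, went from 3.46, 2.44 and 4.3 to 39.02, 29.7 and 26.99 TPM, a difference of 2.91. Mcm7, another ring subunit, rose by 2.29 from a higher base of 30.6, 29.1 and 34.6 TPM.

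A gene was shown only if its promoter held a match to the E2F motif given below, so the matches follow from the choice. The promoters are those of Mcm3, Mcm5 and Mcm6, the called licensing genes of smallest p with a match. They are the RefSeq windows from 250 bases before to 50 after the start on build GRCr8, not the build of the expression values, at chr9:30733697-30733996 (minus strand) for Mcm3, chr19:13488563-13488862 (plus strand) for Mcm5 and chr13:42404303-42404602 (minus strand) for Mcm6. Capitals mark matches, on either strand, to TTTCCCGC, TTTGGCGC, TTTCGCGC or TTTGCCGC, the E2F motif, and matches on opposite strands may overlap. Mcm3 held 2 matches, Mcm5 3 and Mcm6 2.
Mcm3: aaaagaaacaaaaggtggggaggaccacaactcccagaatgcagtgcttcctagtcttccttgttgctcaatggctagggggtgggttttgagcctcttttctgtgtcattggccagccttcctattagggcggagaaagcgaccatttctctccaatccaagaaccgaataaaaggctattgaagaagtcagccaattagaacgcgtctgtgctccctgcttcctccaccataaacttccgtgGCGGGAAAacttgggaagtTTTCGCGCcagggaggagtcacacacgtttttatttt
Mcm5: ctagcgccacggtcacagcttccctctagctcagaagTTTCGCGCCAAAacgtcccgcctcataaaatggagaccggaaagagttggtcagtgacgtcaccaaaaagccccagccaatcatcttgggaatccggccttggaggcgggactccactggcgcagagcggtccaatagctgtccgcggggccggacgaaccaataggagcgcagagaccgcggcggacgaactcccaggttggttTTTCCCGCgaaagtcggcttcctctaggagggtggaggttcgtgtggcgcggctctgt
Mcm6: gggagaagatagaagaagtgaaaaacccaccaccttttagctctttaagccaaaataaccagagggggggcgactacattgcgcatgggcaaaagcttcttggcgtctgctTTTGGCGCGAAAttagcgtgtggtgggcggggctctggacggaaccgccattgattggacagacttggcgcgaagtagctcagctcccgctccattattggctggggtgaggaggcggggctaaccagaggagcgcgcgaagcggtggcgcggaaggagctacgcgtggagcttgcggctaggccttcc
Among 27457 RefSeq promoters of this length 2.3% held such a match, and among the 8688 genes tested that had a promoter 4.2% did. The share was 9 of 16 (56.2%) for called members of the licensing list with a promoter and 156 of 1787 (8.7%) for all genes called higher. For all tested members of that list with a promoter, called or not, it was 11 of 19 (57.9%). A match describes these letters only and does not show a bound site.

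The moving fork showed the same direction in nearly every gene. The list of fork and chromatin assembly genes had 34 tested members, of which 33 rose and none fell, with a median of 1.78, and 27 were called higher on set means. Prim1, the primase subunit that lays RNA primers, was at 21.9, 22.1 and 22.1 TPM in controls and 137, 139 and 127 TPM with lithium, a log2 difference of 2.55 (SE 0.11, adjusted p = 1.51e-10). Dscc1, part of a loader of the sliding clamp, went from 3.22, 3.05 and 2.05 to 34.9, 32.2 and 27.7 TPM, a difference of 3.12. Rpa2, which coats single-stranded DNA, went from 19.1, 18.7 and 18.1 to 64.5, 65.02 and 64.6 TPM, a difference of 1.74. In each of these 3 genes the spread within a group was small beside the gap. Rfc2, a subunit of the main clamp loader, rose by 1.57 (SE 0.091), to 97.9, 106 and 100.3 TPM. Of called members with a RefSeq promoter 13 of 31 (41.9%) held an E2F match, and of all tested members with a promoter 13 of 32 (40.6%).

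Enzymes that supply deoxynucleotides rose in smaller number. Of 22 tested members of that list 13 rose and none fell, with a median of 0.48 and 5 called on set means, and with median-of-ratios scaling 12 rose and 1 fell. Tk1, the thymidine kinase of dividing cells, went from 45.01, 41.1 and 44.4 to 189.5, 186 and 167 TPM, a log2 difference of 2.03 (SE 0.125). Rrm1 and Rrm2, the subunits of ribonucleotide reductase, rose by 1.73 and 1.74. Rrm2 ranged widely within the lithium group, at 81.9, 64.4 and 52.8 TPM in libraries 1 to 3 against 22.1, 18.2 and 16.6 in controls.

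Most tested regulators of the cycle rose, together with inhibitors. Of 25 cyclins, cyclin-dependent kinases, E2F factors and Rb family members tested, 18 rose and none fell, with a median of 0.80 and 10 called on set means. Median-of-ratios scaling called 17 of them higher and 2 lower. Ccne1 and Ccne2, the E cyclins of S-phase entry, rose by 2.31 and 2.55, with Ccne1 at 7.04, 6.53 and 6.42 TPM in controls and 36.7, 39.2 and 35.4 TPM with lithium. E2f7, a repressing E2F factor, rose by 2.04 from 1.11, 0.98 and 0.42 TPM. Tfdp1, the dimer partner of E2F proteins, went from 47.1, 44.4 and 41.7 to 114, 104 and 96.02 TPM, a difference of 1.22. Of 5 tested inhibitors of cyclin-dependent kinases 4 rose over libraries and none on set means. Cdkn1a, the p21 inhibitor induced by p53, went from 3.82, 4.93 and 3.87 to 14.2, 12.7 and 13.3 TPM, a difference of 1.47 (adjusted p = 4.91e-05 over libraries and 0.125 on set means). Cdkn2c rose by 1.24, Cdkn1c by 0.998 and Cdkn3 by 1.43, each with no overlap between the groups. Over all genes tested 33.9% lay wholly above controls.

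Every mitotic gene tested rose over libraries. The list of spindle, kinetochore and cytokinesis genes had 67 tested members, 67 called higher, with a median of 1.68, and 31 of them were called on set means. Without control library 3 the count was 66, as it was with median-of-ratios scaling. Spc24, of the kinetochore complex that grips microtubules, went from 23.4, 22.1 and 21.99 to 101, 115 and 98.5 TPM, a log2 difference of 2.17 (SE 0.116, adjusted p = 1.55e-09). Cenpn, which binds the centromeric nucleosome, went from 9.97, 8.61 and 8.71 to 29.6, 35.3 and 31.4 TPM, a difference of 1.71. Ckap2l, a spindle protein, was under 1 TPM in each control library, at 0.54, 0.64 and 0.27, and at 15.96, 14.6 and 9.14 TPM with lithium. Its difference of 3.24 (SE 0.224) was not called on set means (adjusted p = 0.0815). Cenpm, another centromere protein, rose by 2.14.

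Cenpn and Ckap2l are shown with their promoters (RefSeq, GRCr8, the same window) at chr19:61880283-61880582 (plus strand) and chr3:136977454-136977753 (minus strand), as examples of a motif frequent in this list. Capitals mark the letters TTTGAA or TTCGAA, the cell cycle homology region, on either strand. Both genes were picked by smallest p among called members with a match, and each promoter held 1 match.
Cenpn: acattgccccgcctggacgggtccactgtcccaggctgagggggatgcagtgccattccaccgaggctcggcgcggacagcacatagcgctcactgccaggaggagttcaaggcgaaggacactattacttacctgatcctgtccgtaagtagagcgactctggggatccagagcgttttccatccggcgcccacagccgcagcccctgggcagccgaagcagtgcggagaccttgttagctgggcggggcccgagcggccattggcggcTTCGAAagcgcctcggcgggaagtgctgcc
Ckap2l: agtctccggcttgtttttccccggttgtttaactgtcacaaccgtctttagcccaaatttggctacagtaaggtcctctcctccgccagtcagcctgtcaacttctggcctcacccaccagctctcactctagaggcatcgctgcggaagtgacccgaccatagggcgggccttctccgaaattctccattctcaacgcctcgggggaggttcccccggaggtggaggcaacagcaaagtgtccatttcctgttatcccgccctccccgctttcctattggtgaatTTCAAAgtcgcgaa
Of the 60 mitotic genes with a promoter 44 (73.3%) held this motif, against 19.5% of all promoters and 13.5% of tested genes. None of the 60 held the E2F letters above. The letters CCAAT were in 42 of the 60 (70.0%), against 37.7% of all promoters. In called members of the licensing list the cell cycle homology letters were in 4 of 16 and CCAAT in 12 of 16.

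Genes of DNA repair and of the damage checkpoint rose with the replication genes. Of 27 tested, 26 rose and none fell, with a median of 1.62 and 14 called on set means. Uhrf1, which carries methylation marks across replication, went from 8.58, 7.15 and 10.5 to 84.5, 79.1 and 75.1 TPM, a log2 difference of 3.06 (SE 0.162). Brca1, of homologous recombination, rose by 2.42. Timeless, a fork protection factor, rose by 2.82, and Dtl, part of a ligase that degrades CDT1, by 3.12. Ns5atp9, the rat symbol of a PCNA-binding factor, went from 17.4, 13.99 and 14.03 to 139, 134 and 117 TPM, a difference of 3.02.

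The p53 target list split. Of 24 tested members 10 rose and 4 fell, with a median of 0.29, and 2 rises and 1 fall held on set means. With median-of-ratios scaling 6 rose and 4 fell. Pmaip1, which encodes the death protein NOXA, went from 6.49, 4.3 and 3.63 to 33.3, 27.4 and 29.2 TPM, a log2 difference of 2.44 (SE 0.203, adjusted p = 0.0177 on set means). Phlda3, a brake on AKT, went from 1.78, 2.66 and 2.54 to 8.5, 13.9 and 10.5 TPM, a difference of 1.83. Ddb2, of nucleotide excision repair, rose by 1.47. Ddit4, a brake on mTOR complex signalling that stress also induces, fell from 83.9, 41.03 and 47.3 to 13.2, 16.5 and 18.6 TPM, a difference of -1.72. Btg2, which is also an immediate early gene, fell by 1.48.

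**Figure D3:**
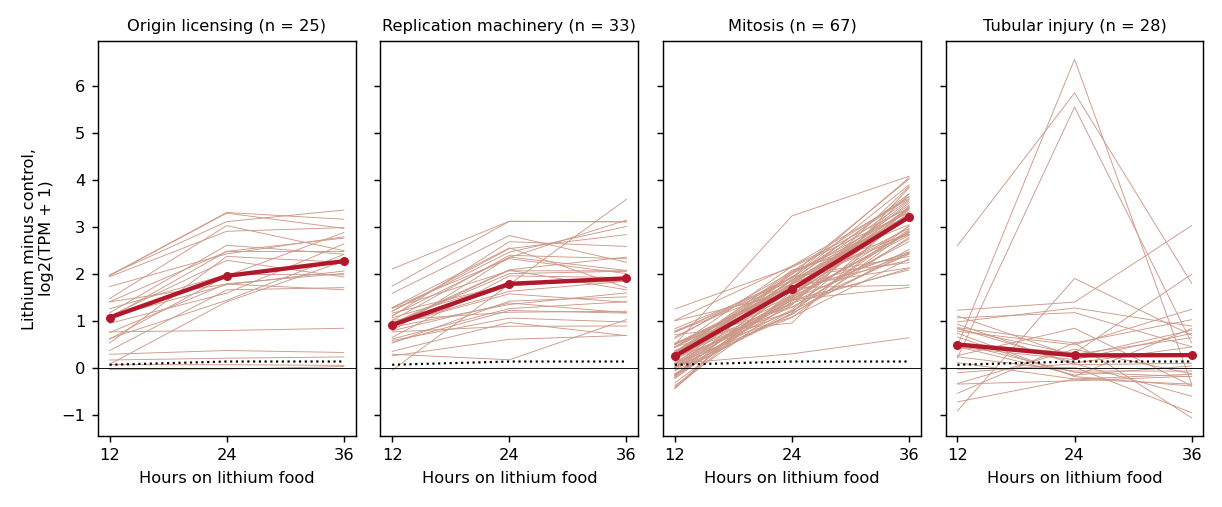
Lithium minus control on the log2(TPM + 1) scale at 12, 24 and 36 h for the members tested at all 3 times, with 1 thin line per gene, the thick line at the list median and the dotted line at the median of all genes tested. The mitotic list climbs at both steps, while Clu, Lcn2 and Timp1 form the peak at 24 h in the injury panel.

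Set against 12 and 36 h, replication genes had moved before mitotic genes. The licensing list had medians of 1.07 at 12 h, 1.96 at 24 h and 2.27 at 36 h, against medians of 0.063, 0.132 and 0.132 over all genes tested. For the mitotic list they were 0.25, 1.68 and 3.21. At 12 h limma called 16 of the 25 licensing genes and 7 of the 67 mitotic genes higher, against 7.96% of all genes (3.78% were lower), and at 36 h 21 and 67, against 25.5% (9.28% lower). The lithium effect was larger at 24 than at 12 h, by the test of the difference itself, in 14 of 25 licensing, 26 of 34 fork and 50 of 67 mitotic genes, against 5.68% of 12605 genes (2.59% had a smaller effect). Between 24 and 36 h it grew further in 52 of the 67 mitotic genes, in none of the licensing genes and in 1 fork gene, against 4.43% of 12492 genes (4.12% had a smaller effect). Rrm2 had log2 differences of -0.20 at 12 h, 1.74 at 24 h and 3.66 at 36 h. Mcm3 had 1.97, 3.31 and 3.17. On set means the test of the difference called 6 larger (0.0476%) and 1 smaller effect (0.00793%) between 12 and 24 h, and 1 larger (0.00801%) and 3 smaller (0.024%) between 24 and 36 h, over the whole table. Leaving out lithium library 1 or 2 at 12 h moved the 716 larger effects to 356 or 1237.

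The mRNA of a few injury proteins rose far more than that of any other named gene. Clu, the secreted chaperone clusterin (ENSRNOG00000016460), was at 57.1, 76.9 and 72.4 TPM in the control libraries and 6655, 7253 and 5952 TPM with lithium. Its log2 difference was 6.57 (SE 0.157, adjusted p = 5.69e-14, and 4.44e-05 on set means). In the other 72 libraries of the series, both segments and all times included, Clu ranged from 23.3 to 331 TPM, and in the other 50 CCD libraries from 23.3 to 96.0. Timp1, an inhibitor of metalloproteinases, was at 2.95, 5.59 and 3.95 TPM in controls and 225, 257 and 229.8 TPM with lithium, a difference of 5.56 (SE 0.243, 0.000691 on set means). It did not pass 13.3 TPM in any of the other 72 libraries. Lcn2, the siderophore-binding lipocalin used as a kidney injury marker, was at 2.71, 3.79 and 6.07 TPM in controls and 261, 343 and 270.1 TPM with lithium. Its difference was 5.86 (SE 0.398, 0.00275 on set means), and it reached at most 40.7 TPM in other CCD libraries. No other group of the series held libraries at such levels of these 3 genes.

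Clu and Timp1 were high at 24 h and far lower at 12 and 36 h. With lithium the median level of Clu was 77.6, then 6655, then 44.6 TPM over the 3 times. The lithium effect on Clu was larger at 24 than at 12 h by a log2 of 6.11 and smaller at 36 than at 24 h, with a difference of -6.93 (adjusted p on set means = 0.0041 and 0.00103). For Timp1 the differences of effects were 5.35 and -5.03 (0.0179 and 0.0285 on set means). Lcn2 differed between lithium and control by 2.60 at 12 h, 5.86 at 24 h and 1.80 at 36 h. Its median with lithium was 14.7 TPM at 36 h. Spp1, the matrix protein osteopontin, was at 183, 219.6 and 234 TPM in controls and 777, 781 and 816 TPM at 24 h with lithium, a difference of 1.90 (SE 0.13), but -0.92 at 12 h. It was not called on set means (adjusted p = 0.457).

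Other injury genes rose by less. Of 30 tested members 11 rose, against 19.9% of all genes, and 1 fell, with a median of 0.30, and 3 rises held on set means: Clu, Timp1 and Lcn2. Cd44, the hyaluronan receptor, went from 11.2, 11.8 and 10.8 to 32.1, 26.8 and 27.5 TPM, a log2 difference of 1.27. Krt7, a keratin of the collecting duct, was the only one to fall, from 1221, 1385 and 1464 to 1126, 1114 and 1195 TPM, by a log2 difference of -0.24. The list had no fall with quantile normalisation, or without control library 2, control library 3 or any 1 lithium library. Scin, which encodes the actin-severing protein scinderin, went from 0.76, 1.66 and 2.53 to 22.04, 24.2 and 26.5 TPM, a difference of 3.31. Here the control group stood apart, since Scin was at 10.2 to 14.0 TPM in 12 h controls, 15.9 to 19.4 in 36 h controls and 12.4 to 34.6 in 72 h controls. Atp12a, the non-gastric proton pump subunit, went from 2.34, 3.55 and 2.53 to 21.9, 31.6 and 38.8 TPM, a difference of 3.04, not called on set means (adjusted p = 0.215).

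**Figure D4:**
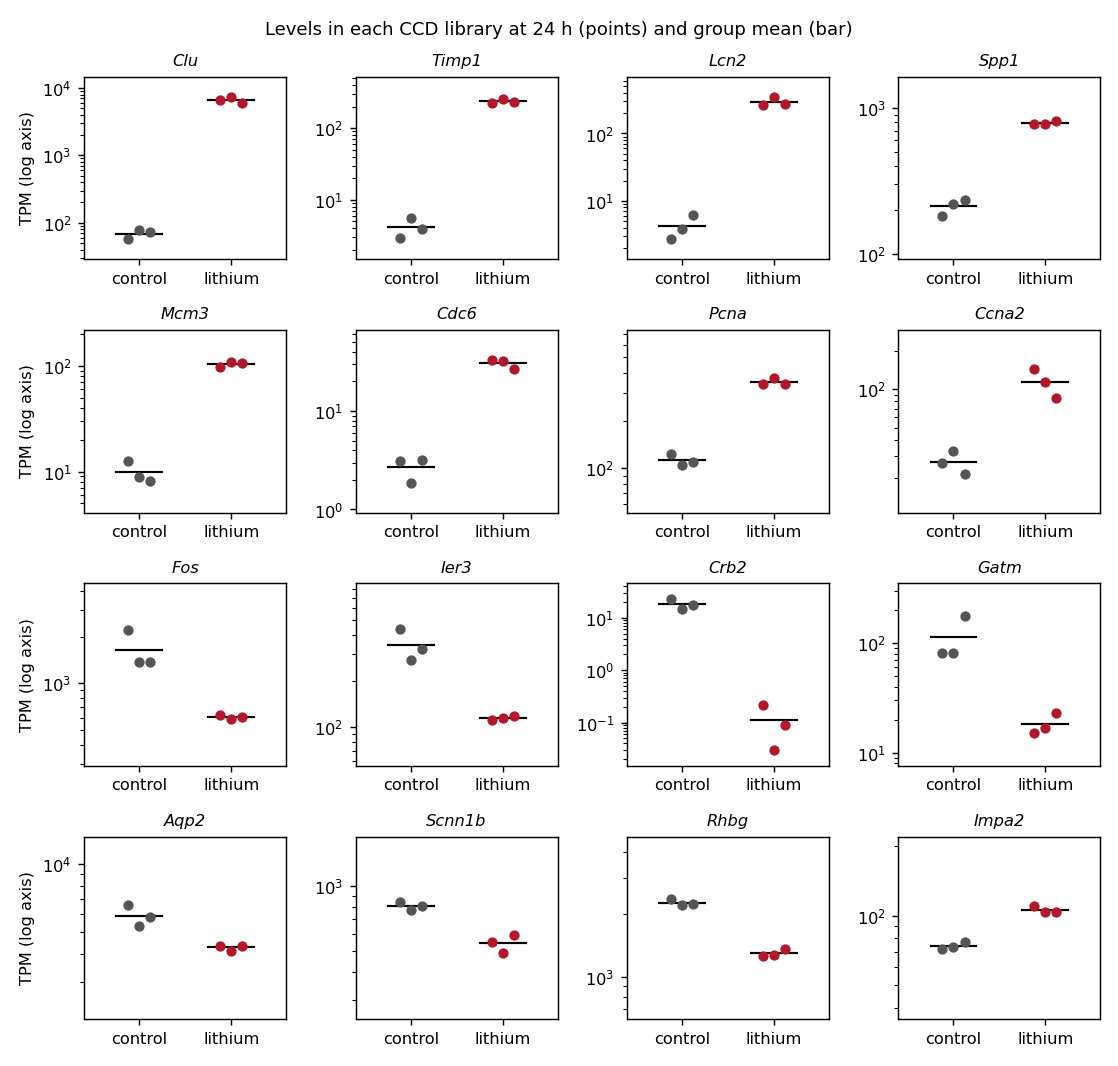
TPM of 16 genes in each library at 24 h on log axes, with 1 point per library (control grey, lithium red) and a bar at the group mean. The 16 genes were picked by hand, and in all of them the groups do not overlap. Over all genes tested 33.9% lay wholly above controls and 10.4% wholly below. Among the 16, Clu has the widest gap, from at most 76.9 TPM in controls to at least 5952 TPM with lithium.

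Cytoskeletal genes moved both ways. Of 32 tested members of the actin and tubulin list 13 rose and 4 fell, with a median of 0.29, and 5 rises and 1 fall, in the microvillus gene Vil1, held on set means. Without control library 1, control library 3 or any 1 lithium library there were 2 falls. Tubb5, a beta tubulin, went from 163, 159 and 161 to 700.3, 624 and 567 TPM, a log2 difference of 1.96 (SE 0.118). Stmn1, which destabilises microtubules, went from 252, 265 and 258 to 806, 717 and 559 TPM, a difference of 1.41. Tuba1b, an alpha tubulin, rose by 1.36, to 1145, 1154 and 974 TPM.

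Among immediate early genes more fell than rose. This family, with the AP-1 subunits of the FOS and JUN families, is switched on within minutes by growth factors and stress. Of 25 tested members 11 fell and 2 rose, with a median of -0.35, against 5.77% of all genes called lower, and 5 falls held on set means. Median-of-ratios scaling gave 14 falls and 1 rise, and leaving out control library 2 or 3 gave 11 and 0 or 10 and 1. Fos was at 2229, 1376 and 1369 TPM in controls and 625, 584 and 606 TPM with lithium, a log2 difference of -1.41 (SE 0.189, adjusted p = 3.25e-05, and 0.0119 on set means). Ier3, a survival factor, went from 437, 275 and 325 to 112, 114 and 118 TPM, a difference of -1.56 (SE 0.133, 0.00883 on set means). Btg2, an antiproliferative gene, went from 849, 578 and 549 to 227, 231 and 236 TPM, a difference of -1.48. In all 3 genes control library 1 was the highest and the lithium libraries lay close together. Junb went from 979, 606 and 668 to 325, 292 and 313 TPM, a difference of -1.24. The lithium effect on 14 of the 25 differed between 12 and 24 h, 12 of them more negative at 24 h. Over all genes 2.59% had a more negative and 5.68% a more positive effect at 24 h. On set means only 1 gene of the whole table (0.00793%) had a more negative effect. Fos had log2 differences of 0.09 at 12 h and -0.45 at 36 h, and its 36 h control libraries reached 4805 TPM.

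Interferon-stimulated genes moved both ways. Of 34 tested members 8 fell and 4 rose, and none held on set means. Without lithium library 3 there were 7 falls and 2 rises. The list median was 0.055, and -0.097 with median-of-ratios scaling. Mx2, an antiviral GTPase, went from 10.2, 23.1 and 24.3 to 1.34, 1.24 and 2.03 TPM, a log2 difference of -2.92 (SE 0.466). Oas1a, an oligoadenylate synthetase, went from 5.41, 9.72 and 10.04 to 0.6, 0.38 and 1.29 TPM, a difference of -2.41, and Ifi47, a GTPase, from 49.9, 47.3 and 40.5 to 22.96, 30.1 and 29.6 TPM, -0.72. Tap1, the peptide transporter of antigen presentation, rose by 1.02. At 12 h these differences were 1.22 for Mx2, 0.64 for Oas1a and 1.37 for Ifi47, the other sign.

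NF-kB genes rose in part. Of 20 tested 8 rose and 1 fell, with a median of 0.42, and 1 rise held on set means, in the chemokine gene Cxcl10. Cxcl16, a chemokine of epithelium, went from 44.1, 38.0 and 47.9 to 90.6, 91.5 and 87.96 TPM, a log2 difference of 1.04 (SE 0.178). Relb and Nfkb2, subunits of the non-canonical branch, rose by 0.77 and 0.61. Nfkbib, an inhibitor of NF-kB, was the only one to fall, with -0.58. Cd14, a co-receptor for endotoxin, was the only leukocyte marker of 14 tested to be called, with a difference of 0.54. No leukocyte marker was called with either scaling or without lithium library 3, and 3 were without lithium library 1. Without lithium library 2 the NF-kB list had 5 rises. Of 14 tested STAT3 pathway genes 2 rose and 3 fell, with 1 rise without lithium library 2. Pim1, a kinase that STAT3 induces, fell from 43.9, 35.1 and 35.2 to 7.68, 6.77 and 6.28 TPM, a difference of -2.30 (SE 0.177). Fgg, a fibrinogen chain, rose from 0.49, 0.4 and 1.96 to 5.42, 4.11 and 8.57 TPM, a difference of 1.89. Of 8 tested members of the EGF receptor family and its ligands the ligands Tgfa and Hbegf rose, by 0.73 and 0.55, a share near the 19.9% of all genes. With either scaling, or without control library 3 or lithium library 1, the list had 1 rise. Erbb2 had 0.18, not called, and -0.039 with quantile normalisation.

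Principal cell transport genes moved both ways at this time. Of 21 tested members of that list 4 fell and 3 rose, against 5.77% lower and 19.9% higher over all genes, with a median of -0.14, and none held on set means. With median-of-ratios scaling 7 fell and 1 rose, and without lithium library 1 or lithium library 3 there was 1 rise. Aqp2 (ENSRNOG00000054378) was at 6579.6, 5325 and 5800.1 TPM in controls and 4348, 4124 and 4323 TPM with lithium, a log2 difference of -0.46 (SE 0.092, adjusted p = 0.00136 over libraries and 0.759 on set means). Every lithium library lay below every control, as in 10.4% of all genes tested. Scnn1b and Scnn1a, subunits of the epithelial sodium channel, had differences of -0.56 and -0.52. Scnn1b was at 838, 774 and 806 TPM in controls and 554, 489.8 and 596 TPM with lithium. The third subunit, Scnn1g, had -0.20 and was not called (adjusted p = 0.218). Avpr2, the vasopressin receptor of this segment, fell from 917, 738 and 834 to 646, 628 and 700.2 TPM, a difference of -0.33 (adjusted p = 0.0259). Kcnj16, a basolateral potassium channel subunit, rose from 22.9, 23.3 and 25.4 to 45.7, 48.98 and 48.98 TPM, a difference of 0.97. Aqp3, the basolateral water channel, had 0.02 (adjusted p = 0.905), and -0.14 with median-of-ratios scaling. Kcnj1, the apical potassium channel, had 0.15, and -0.008 with median-of-ratios scaling, and was not called.

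The principal cell list went further down by 36 h. Its median was -0.27 at 12 h, -0.14 at 24 h and -0.85 at 36 h. At 36 h 15 members were called lower, against 9.28% of all genes. The lithium effect was more negative at 36 than at 24 h in 10 of the 21 members and in none more positive. Over all genes 4.12% had a more negative and 4.43% a more positive effect. On set means only 3 genes of the whole table (0.024%) had a more negative effect, Clu and Timp1 among them. Aqp2 had differences of -0.88 at 12 h, -0.46 at 24 h and -1.61 at 36 h. Scnn1b had -0.50, -0.56 and -1.59.

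In the vasopressin and cyclic AMP list 5 of 23 tested members rose, near the 19.9% of all genes, and 4 fell, against 5.77%, with none on set means, and median-of-ratios scaling turned this to 4 and 6. Without lithium library 2 there were 4 rises and 2 falls. Pde4b, a phosphodiesterase that breaks down cyclic AMP, fell from 24.2, 25.2 and 21.2 to 4.88, 5.94 and 6.83 TPM, a log2 difference of -1.84 (SE 0.17, adjusted p = 5.15e-07). Crem, a cyclic AMP-responsive transcription factor, fell by 0.59. Adcy3, an adenylyl cyclase, rose by 1.12 from 0.96, 1.4 and 0.83 TPM, and Gnai2, an inhibitory G protein subunit, by 0.46. Among 19 tested collecting duct transcription factors and Notch genes 2 rose and none fell (2 and 3 with median-of-ratios scaling): Nrarp, a Notch feedback gene, by 1.36 and Pax8 by 0.65. Tfcp2l1, a factor of intercalated cell identity, had -0.34 and Emx2 0.35, neither called.

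The summed intercalated cell list was lower with lithium. It was at 20630.3 to 22058 TPM in controls and 16226 to 16924 TPM with lithium. These controls lay above those at 12 h (17400 to 18335 TPM) and 36 h (17287 to 19016 TPM), while 72 h controls ranged from 13356 to 21486 TPM. With lithium the sum was 16277 to 17332.5 TPM at 12 h and 15734 to 16485 TPM at 36 h. Of 21 tested members 8 fell and 1 rose, with a median of -0.28 and none called on set means. Median-of-ratios scaling gave 12 falls and no rise, and without control library 2, control library 3 or lithium library 2 there were 5 falls and 1 rise. Rhbg, the basolateral ammonia transporter, went from 2359, 2213 and 2243 to 1254, 1272 and 1366 TPM, a log2 difference of -0.81 (SE 0.094, adjusted p = 7.06e-06 over libraries and 0.492 on set means). Car12, a carbonic anhydrase, went from 1703, 2154 and 2064 to 1346, 1272 and 1370.3 TPM, a difference of -0.56. Atp6v0d2, a subunit of the proton pump, had -0.36. Avpr1a, the vasopressin receptor of intercalated cells, was the only one to rise, from 81.8, 91.9 and 94.95 to 115, 114 and 127 TPM, a difference of 0.40. Slc4a1, the bicarbonate exchanger of acid-secreting cells, had -0.49 (adjusted p = 0.109), Slc26a4, pendrin of base-secreting cells, -0.28, and their transcription factor Foxi1 -0.10, and none of these 3 was called. The summed proximal tubule markers were lower with lithium too, and their part in the intercalated values was not tested. At 12 and 36 h Rhbg had 0.14 and -0.14.

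The direct targets of lithium changed little in mRNA. Of 15 tested members of the list of inositol enzymes and glycogen synthase kinase 3 genes 2 rose and 1, Fbp1, fell, which is also a proximal tubule marker. With quantile normalisation 1 rose and 2 fell, without lithium library 1 there was 1 rise, and without control library 3 or any 1 lithium library there was no fall. Impa2, an inositol monophosphatase, went from 71.6, 72.95 and 77.1 to 109.8, 104 and 103 TPM, a log2 difference of 0.51 (SE 0.074, adjusted p = 6.98e-05). Pgm1, a phosphoglucomutase, rose by 0.33. Gsk3a was at 10.9, 12.8 and 13.4 TPM in controls and 14.5, 15.4 and 18.5 TPM with lithium, a difference of 0.36 that was not called (adjusted p = 0.0786). Of 13 tested Wnt and beta-catenin targets and brakes 6 rose and none fell, none of them on set means, and without control library 3 or lithium library 1 there were 3. Wnt7b, a ligand, went from 14.4, 6.64 and 5.46 to 30.5, 23.5 and 24.5 TPM, a difference of 1.56. Fzd6, a receptor, rose by 0.61. Apcdd1, a Wnt inhibitor, went from 8.66, 12.9 and 11.6 to 23.3, 19.2 and 21.4 TPM, a difference of 0.90, with -2.54 at 12 h and -1.77 at 36 h. Here too the controls differed over time, since Apcdd1 lay at 93.5 to 105 TPM in 12 h controls and 8.66 to 12.9 TPM in 24 h controls.

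Transcripts from mitochondrial DNA were lower with lithium, while few nuclear genes of the respiratory chain were called. Of 13 mitochondrial subunit genes tested 12 fell, with a median of -0.64, none on set means, and 4 in the fit with the 72 h groups. With quantile normalisation 8 fell. Mt-nd1, of respiratory complex I, went from 5426, 6703 and 5816 to 3726, 3455 and 3515 TPM, a log2 difference of -0.74 (SE 0.094, adjusted p = 1.72e-05). Mt-nd2 and Mt-nd4 of the same complex had -0.72 and -0.84. Of 34 nuclear subunit genes 3 fell and 1 rose, with a median of -0.06, and median-of-ratios scaling gave 9 falls and no rise. There was 1 fall without control library 2, control library 3, lithium library 2 or lithium library 3, and leaving out any 1 library other than control library 3 left no rise. Atp5b, of the ATP synthase, had -0.26, and Ndufa10, the only one to rise, 0.18. Among 19 glycolysis genes 3 rose and 2 fell, and with that scaling none rose and 5 fell. Gapdh rose by 0.34, and Slc2a1, the main glucose carrier of many cells, fell from 177, 142 and 142 to 127, 97.1 and 108 TPM, a difference of -0.47.

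Clock and steroid hormone target lists had falls in larger share than the 5.77% of all genes. In the clock list 5 of 16 tested genes fell and 2 rose, with none on set means. Nr1d1, the clock repressor REV-ERB alpha, went from 20.1, 11.8 and 19.3 to 4.73, 5.2 and 4.41 TPM, a log2 difference of -1.61 (SE 0.188). Bhlhe40, another clock repressor, went from 87.3, 62.6 and 68.95 to 30.1, 34.7 and 38.8 TPM, a difference of -1.05. Of 16 glucocorticoid and mineralocorticoid targets 2 rose and 4 fell, with none on set means, and 1 rose without control library 2, lithium library 1 or lithium library 3. Pdk4, which shuts pyruvate out of the mitochondrial cycle, rose from 11.6, 11.01 and 9.94 to 52.02, 47.99 and 46.03 TPM, a difference of 2.07, while Klf9 and Zbtb16 had -0.66 and -1.25. Of 25 sterol and fatty acid genes 2 rose and 3 fell, or 8 fell with median-of-ratios scaling. Insig1, the sterol-sensing retention protein, fell from 54.4, 39.4 and 51.02 to 26.7, 19.2 and 19.9 TPM, a difference of -1.10, and Fasn, fatty acid synthase, rose by 0.78.

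The unfolded protein response had 3 rises and 2 falls among 25 tested genes, or 2 and 5 with median-of-ratios scaling, and 5 and 2 without control library 2. Over all genes 19.9% were called higher and 5.77% lower. Pdia4 and Creld2, of the endoplasmic reticulum, rose by 0.54 and 0.53, and Ddit3, the stress factor CHOP, fell from 119, 119 and 98.8 to 87.98, 69.8 and 66.6 TPM, a difference of -0.59. Of 21 cytosolic heat shock genes 6 rose and 1 fell, and leaving out any 1 library other than lithium library 2 left 2 or 3 rises. Hspb8 went from 5.28, 6.93 and 5.6 to 17.6, 12.7 and 17.1 TPM, a difference of 1.27, and Hspb1, the only one to fall, had -0.38. Ribosome biogenesis had 8 rises among 33 tested genes and no fall, close to the 19.9% of all genes, with 4 rises and 1 fall under median-of-ratios scaling and 5 rises without control library 3 or lithium library 1. Nop56, a nucleolar protein, rose by 0.76. The counts that follow are small and are not read as list results beside the 19.9% higher and 5.77% lower of all genes. Of 20 tested Nrf2 targets 1 rose and 2 fell, of 8 osmotic response genes 2 rose and 1 fell, of 12 prostaglandin genes 3 rose, and of 18 BMP and TGF-beta targets 2 rose and 1 fell. With median-of-ratios scaling these were no rise and 4 falls for Nrf2, 1 rise and 2 falls for osmotic response genes, 2 rises and 1 fall for prostaglandin genes and 2 of each for BMP and TGF-beta. The Nrf2 list ranged from no rise (without control library 2 or lithium library 1) to 3 (without lithium library 2) and had no fall without control library 3 or lithium library 1. The osmotic list had 1 rise without control library 2, control library 3, lithium library 1 or lithium library 3. It had 2 falls without control library 2 and none without control library 3, lithium library 1 or lithium library 2. The BMP and TGF-beta list had 1 rise without lithium library 3 and no fall without control library 1 or lithium library 1. Ptgs1, cyclooxygenase 1, went from 85.5, 60.3 and 59.4 to 135, 113 and 108 TPM, a difference of 0.80. Slc38a2, an amino acid carrier that hypertonicity induces, rose by 0.68, and Col4a1, a basement membrane collagen chain, by 0.74. Id2, a target of BMP, fell by 0.44.

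The summed markers of the proximal tubule were lower with lithium than in the 24 h controls. Here too the controls at 24 h stood apart, at 961 to 2919 TPM. The sum was 137 to 771 TPM in 12 h controls and 147 to 287 TPM in 36 h controls. In 72 h controls it was 80.9 to 733 TPM. Of 19 tested markers 8 fell and none rose, with a median of -1.47, and 1 fall held on set means. Gatm, of creatine synthesis, went from 81.96, 80.98 and 175 to 15.2, 16.9 and 23.1 TPM, a log2 difference of -2.47 (SE 0.527, adjusted p = 0.00231). Ass1, of arginine synthesis, went from 32.5, 35.5 and 86.03 to 6.72, 9.67 and 9.62 TPM, a difference of -2.31. Gpx3, a secreted peroxidase, had -2.42. Control library 3 was the highest in all 3, and the other controls still lay above all lithium libraries. Without it 3 markers fell and the median was -1.07, and without any 1 lithium library 3 or 4 fell. The summed markers moved the same way, at 961 to 2919 TPM in controls against 262 to 415 with lithium, and their defining carriers were low but present: Lrp2 was at 0.42, 1.97 and 4.51 TPM in controls and 0.69, 0.42 and 1.05 TPM with lithium, and Slc34a1 at 12.8, 77.4 and 195 and 38.8, 9.13 and 31.01. Their part in these falls was not tested. The same pattern of a higher control library 3 was seen in Hao2 (-2.12), Acsm3 (-2.13), Gba3 (-2.12), Glyat (-2.005), Haao (-2.06) and Ttc36 (-1.84), which were among the 20 largest falls.

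Among markers of other cells the counts were small. Umod and Cldn16 were called higher of 7 thick ascending limb markers, by 0.87 and 0.73, with Umod at 14.0, 9.64 and 9.79 TPM in controls and 22.2, 15.6 and 26.5 TPM with lithium. No thick ascending limb marker was called with quantile normalisation or without lithium library 3, and 1 rose without lithium library 1 or any 1 control library. With median-of-ratios scaling 1 of these markers rose and 1 fell. Of 10 distal convoluted and connecting tubule markers Wnk4 fell, with -0.54, and the list had 3 falls with either scaling, 2 without lithium library 3 and none without control library 3 or lithium library 2. None of 11 endothelial, 2 stromal and 4 red cell markers was called. Hbb was at 39.6, 20.2 and 68.6 TPM in controls and 0.24, 0.41 and 23.0 TPM with lithium, where library 3 stood apart from the others.

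Of the large falls outside the proximal list, Crb2 was the largest among genes with a symbol of their own. Crb2, a cell polarity protein, was at 22.6, 14.7 and 17.8 TPM in controls and 0.22, 0.03 and 0.09 TPM with lithium, a log2 difference of -4.10 (SE 0.175, adjusted p = 1.51e-10, and 0.0421 on set means). It was the controls at 24 h that stood apart, since Crb2 did not pass 0.09 TPM in controls at 12 or 36 h. The lithium libraries at 36 h were at 16.0 to 21.2 TPM, so the difference had the other sign there, 4.17. Mgst1, a glutathione transferase, went from 68.1, 71.7 and 78.9 to 14.4, 15.3 and 16.1 TPM, a difference of -2.18, and Rd3l from 21.7, 26.6 and 21.8 to 2.54, 2.96 and 2.15 TPM, -2.78. Neither was called on set means (adjusted p = 0.207 and 0.392). Cyp24a1, which inactivates vitamin D, fell from 1.26, 7.68 and 6.53 to 0.03, 0.2 and 1.18 TPM, a difference of -1.93, also on set means (0.012). H3f3c, with -2.14, and Slc39a1 and RT1-CE1, with 2.93 and 2.91, are genes of 2 levels. By the rule that picked them, these genes also differ between libraries within a treatment at 72 h. RT1 genes share reads with close copies.

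**Figure D5:**
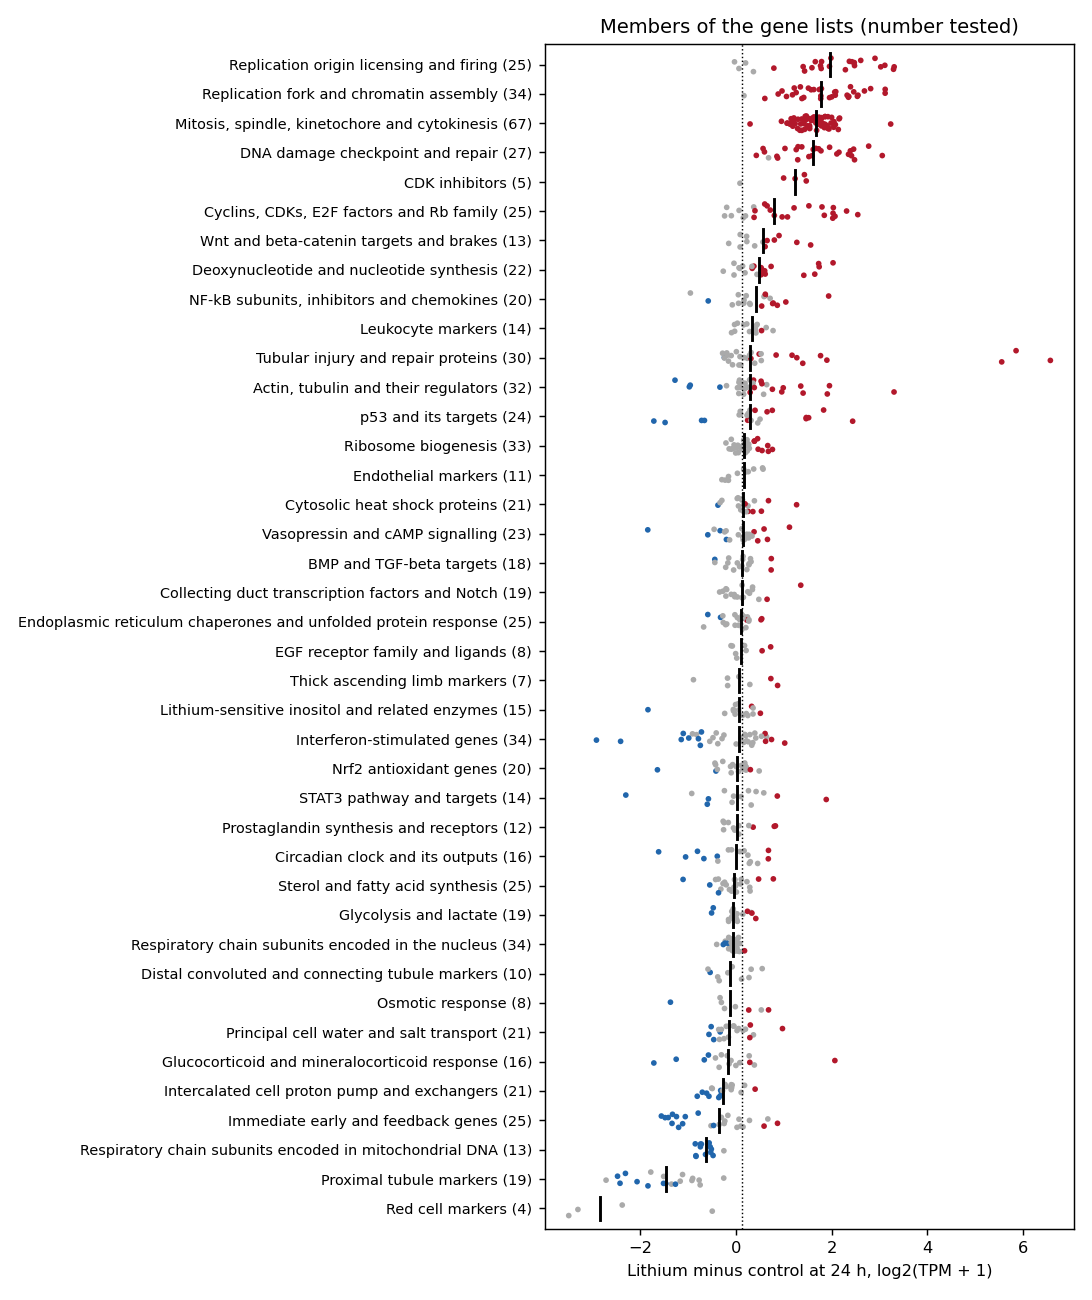
Log2 difference between lithium and control at 24 h for each tested member of 40 gene lists, ordered by list median (black bar), with the number tested in brackets, called genes in red (higher) or blue (lower) and the median of all genes, 0.132, dotted. Replication, mitosis and repair lists stand at the top with medians of 1.62 to 1.96, and immediate early genes, mitochondrial subunits and proximal and red cell markers at the bottom.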

How the data were processed

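Poly(A) RNA from microdissected rat CCD was converted to cDNA with a SMARTer V4 kit and 15 PCR cycles, and libraries were made with Nextera XT from 1 ng, per the labels' protocols. The kit does not record strand, and reads of overlapping antisense genes can be mixed. The deposited values are TPM per gene with 2 decimals, for 32754 genes and 75 libraries. STAR 2.5.2b, RSEM 1.2.31 and Rnor_6.0 are named in the submitters' processing notes, and the annotation version is not given in the sources used here. TPM keeps no counts, so the depth is unknown and no count model was used.

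Libraries were grouped by their labels. Limma 3.58.1 (R 4.3.3, mean-variance trend) was fitted to log2(TPM + 1), with a pseudocount of 1, in the 6 CCD groups at 12, 24 and 36 h, which shared 1 estimate of the spread. The contrasts were lithium minus control at 24 h and the differences of that effect from 12 h and 36 h. Tests were two-sided, and p-values were adjusted by Benjamini-Hochberg over all genes tested, with calls under 0.05. For set means, libraries at 72 h were sorted by the 2-level genes (joined at up to 2.75 differing genes, with sets at least 4.83 apart), and each early group counted as 1 mean. The rule for these genes was chosen after seeing the data. The 41 gene lists, the comparison and the named genes were chosen with earlier results of these data known. Lists carry no test and are given by counts and medians. Named genes were the 20 largest rises and falls with a symbol of their own and at least 5 TPM, a fixed transporter panel, the 4 list members of smallest p, lone opposite members, and the 8 genes of smallest p for each difference of effects. Genes named outside this rule, such as Cxcl10, Vil1, Lrp2 and those in the closing section on other genes, were picked after their values were seen. Some genes that the rule picks are not reported here. Promoters came from RefSeq (GRCr8) by symbol, for 628 of 806 list genes tested.

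Alternatives covered the pseudocount (0.1), the filter (none, or 5 TPM), scaling, mitochondrial genes, the variance trend, libraries in the fit, a replicate block, each library left out, and set means. The fits were tested on simulated data. Python 3.11.15 with numpy 2.4.6, pandas 2.3.3, scipy 1.17.1 and matplotlib 3.10.9 was used for tables and figures.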

Additional observations from a re-analysis of the deposited data

Results flagged for a closer look

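The lithium effect differed in time by the test of the difference itself (limma, adjusted over all genes tested). From 12 to 24 h it was more positive in 716 genes and more negative in 327. From 24 to 36 h it was more positive in 553 and more negative in 515.

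Between 12 and 24 h the named genes of smallest p were Clu (difference of log2 effects 6.11), Timp1 (5.35), Apcdd1 (3.44), Znf768 (3.42), Anapc7 (3.32), Spp1 (2.82), Crb2 (-4.08) and H3f3c (-4.46). On set means Clu, Timp1 and Apcdd1 were called, with adjusted p of 0.0041, 0.0179 and 0.0187. For Apcdd1, Crb2, H3f3c and Znf768 the control groups at 12 and 24 h did not overlap, so the controls moved too. H3f3c, for example, was at 4.76 to 7.15 TPM in 12 h controls and 27.9 to 36.6 TPM in 24 h controls. By list, 14 of 25 licensing, 26 of 34 replication fork, 50 of 67 mitotic and 11 of 25 cyclin and E2F genes differed, all with a larger effect at 24 h, and 14 of 25 immediate early genes differed, 12 of them downward, against 5.68% of 12605 genes upward and 2.59% downward.

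Between 24 and 36 h they were Crb2 (8.28), Pfdn6 (3.16), Rfk (1.75), RT1-CE16 (-2.58), Slc39a1 (-3.02), RT1-CE1 (-4.14), Timp1 (-5.03) and Clu (-6.93), of which Clu and Timp1 were called on set means, with adjusted p of 0.00103 and 0.0285. Pfdn6 was at 114 to 119 TPM in the 36 h lithium libraries and at 7.85 to 13.7 TPM in those at 24 h. Pfdn6, Slc39a1 and RT1-CE1 are genes of 2 levels, which by the rule that picked them also differ between libraries within a treatment at 72 h. For RT1-CE1 and Crb2 the controls moved too. RT1-CE1 sat at its low level in all 24 h controls and at its high level in all 36 h controls. RT1 genes share reads with close copies. By list, 52 of 67 mitotic genes differed, all upward, 12 of 30 injury genes (5 upward), 12 of 32 cytoskeletal genes (11 upward), 10 of 16 clock genes (7 upward) and 10 of 21 principal cell genes, all downward, against 4.43% of 12492 genes upward and 4.12% downward.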

How the results depend on the processing

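At 24 h the 2372 higher calls became 1023 in the fit with all 8 CCD groups, 1572 with median-of-ratios scaling, 1524 with quantile normalisation and 288 on set means, and the 687 lower calls became 209, 1426, 1418 and 25. With a library left out the higher calls ranged from 1789 to 2013 and the lower from 453 (without control library 3) to 627. For the difference of effects between 12 and 24 h the 716 larger effects became 86 with all 8 groups and 6 on set means, and the 327 smaller ones 39 and 1, with ranges of 356 (without lithium library 1 at 12 h) to 1237 (without library 2) and 266 to 329 over libraries left out. Between 24 and 36 h the 553 became 111 and 1, the 515 became 89 and 3, with ranges of 383 to 513 and 354 to 628. The causes of these moves were not tested. Labels share replicate numbers, which are not stated to pair libraries. Deviations of same-numbered libraries had r of -0.082, 0 and 0.14 between control and lithium at 24 h, and those of other pairs -0.227 to 0.229. With 3 libraries per group these values can neither show nor exclude pairing. With a replicate block the calls were 2307 higher and 675 lower at 24 h, 443 and 257 between 12 and 24 h, and 517 and 486 between 24 and 36 h. In the fit with all 8 groups the licensing, fork and mitotic lists had 21, 33 and 64 rises, but p53 targets 5, NF-kB genes 2 and Wnt genes 2, and falls dropped to 7 in immediate early, 3 in intercalated, 1 in principal cell, 4 in mitochondrial and 5 in proximal genes. Small differences changed sign: Aqp3 had -0.135 with median-of-ratios scaling, -0.029 without mitochondrial genes, and a range of -0.044 (without control library 2) to 0.117 (without control library 1), with -0.001 without control library 3 and -0.004 without lithium library 1; Kcnj1 had -0.008 with median-of-ratios scaling; Erbb2, Erbb4 and Mt-atp6 had -0.039, -0.027 and 0 with quantile normalisation; and Cdh5 ranged from -0.177 without lithium library 3 to 0.763 without lithium library 1. None of these was called in the first fit except Mt-atp6. With unknown depth, low genes rest on the spread between libraries alone.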

Other observations

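Of the 288 genes called higher on set means, 115 were in the gene lists and 173 were not. The genes named here are among those 173 and were picked after their values were seen. Tcf19, a factor expressed late in the first growth phase of the cycle, was at 25.01, 24.5 and 24.3 TPM in controls and 141, 129 and 126 TPM with lithium, a log2 difference of 2.38. Zfp367, a zinc finger protein, differed by 2.33, Cenph, of the inner kinetochore, by 2.75, and Dctd, which makes deoxyuridine monophosphate, by 2.30. Dtymk, the thymidylate kinase, went from 79.7, 77.8 and 74.4 to 205, 196 and 180.0 TPM, a difference of 1.31. Ezh2, the methyltransferase of Polycomb, differed by 2.04.

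Other genes outside the lists were picked in the same way. Sdc1, the proteoglycan syndecan 1, was at 0.64, 1.66 and 1.04 TPM in controls and 12.9, 12.6 and 9.39 TPM with lithium, a log2 difference of 2.60, with 0.56 at 12 h and 2.70 at 36 h. Tmem54, a membrane protein, was at or under 0.27 TPM in each control and at 5.31, 4.96 and 3.98 TPM with lithium. Smpdl3b, a lipid-modifying enzyme of the plasma membrane, differed by 2.13 at 24 h, -0.28 at 12 h and 0.16 at 36 h. Fam81a differed by 1.504 at 24 h and by 0.37 and 0.33 at 12 and 36 h. The test on set means of how those effects differ between times is not reported here for these genes.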
